A study of Mus musculus with 10 samples.

Results

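The proteasome genes were taken as every entry of the expression table whose symbol begins with Psma, Psmb, Psmc, Psmd, Psme, Psmf or Psmg followed by a number, which gave 49 of 16697 gene entries. Of these, 48 encode proteasome subunits or the proteins that assemble, activate or inhibit the particle, and 1, Psmc3ip, is a meiotic recombination factor that shares only the prefix. All 49 passed the filter on low values, which asked for at least 1 FPKM in at least 3 libraries. FPKM are reads scaled for transcript length and library size. Levels set side by side between genes depend on the length used, and those between samples on the scaling, as described below.

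RNA was sequenced from 10 mouse livers or liver tumors. Normal liver (NL, n = 4) came from wild-type mice without injected plasmids named in the labels. The c-MYC tumors (n = 3) were hepatocellular carcinomas (HCCs) raised by hydrodynamic tail vein injection, which delivers plasmid DNA to hepatocytes, of c-MYC together with the empty pT3 vector. The c-MYC/FOXO1AAA tumors (n = 3) received c-MYC with FOXO1AAA, a constitutively active FOXO1 that carries a MYC tag and is expressed from the EF1α promoter. All samples are labelled wild type, both tumor groups share the c-MYC plasmid, and ages were not given. The labels name C57BL/6 for every sample. The extraction notes and methods name FVB for the normal livers, and the study names FVB/N for the injected mice of both tumor groups. Which strain is right is not settled, but neither source names a strain difference between the groups. The descriptions do not settle if the control tumors also received MCL1. If they did, its effect and that of FOXO1AAA cannot be told apart between the tumor groups. As far as the methods tell, the libraries of a group came from separate injected mice or separate normal livers, and no pooling is named.

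The proteasome is the particle that degrades ubiquitin-tagged proteins in the cytosol and nucleus. Its 20S core is a stack of α and β rings with the proteolytic sites on the inner faces of the β subunits Psmb5, Psmb6 and Psmb7. The 19S regulator on its ends recognizes, unfolds and feeds in the substrate, the whole being called the 26S proteasome. After interferon, newly built cores take up Psmb8, Psmb9 and Psmb10 in place of the 3 catalytic subunits, which makes the immunoproteasome that favors peptides fit for major histocompatibility complex (MHC) class I molecules. Other caps (Psme1 with Psme2, Psme3, or Psme4) can take the place of the 19S regulator.

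The reads on the 49 genes, recovered as whole numbers from the deposited values, took 0.318% to 0.350% of all reads in the NL libraries and 0.559% to 0.662% in the 6 tumor libraries. Library depth was 13.1 to 20.5 M reads. The scaling factors applied to the library sizes in the deposited values, recovered with the reads, were 0.649 to 0.684 in NL, 1.26 to 1.29 in c-MYC and 1.454 to 1.502 in c-MYC/FOXO1AAA, and the FPKM below carry that scaling. As a check of the labels, Foxo1 was 7.14 ± 0.532 FPKM in NL, 5.63 ± 0.721 in c-MYC and 83.1 ± 12.8 in c-MYC/FOXO1AAA (mean ± SD, n = 4, 3 and 3, as for all such values below). Mouse Myc, at 11.2, 0.771 and 0.983 FPKM, does not check the injected c-MYC, since the sources do not say if plasmid reads are counted there. For the same reason Mcl1 does not settle if MCL1 was injected. Its log2 fold change was 0.33 in c-MYC against NL and -0.63 in c-MYC/FOXO1AAA against c-MYC. The labelled tissue was checked against 10 hepatocyte markers, whose summed level was 85070 to 96380 FPKM in NL, 3679 to 5684 in c-MYC and 922 to 1625 in c-MYC/FOXO1AAA. In bulk tissue, fewer cells of a type and less RNA per cell cannot be told apart.

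The 250 bases upstream of the start given in the RefSeq promoter table (GRCm38.p6) are shown for the 3 immunoproteasome genes. The 2 constitutive counterparts found there are added, so that the catalytic pairs, whose levels differed most in pattern, can be compared. The stretches read 5′ to 3′ on the gene's own strand, with matches to any of 6 motifs in capitals. For Psmb6 the start in the promoter table lies inside the RefSeq gene, which begins at chr11:70525324. The end of its printed stretch is thus not upstream of the gene. Psmb8 (chr17:34197945-34198194, plus strand), Psmb9 (chr17:34187331-34187580, minus strand), Psmb10 (chr8:105938393-105938642, minus strand), Psmb5 (chr14:54617996-54618245, minus strand) and Psmb6 (chr11:70525107-70525356, plus strand) follow.
Psmb8: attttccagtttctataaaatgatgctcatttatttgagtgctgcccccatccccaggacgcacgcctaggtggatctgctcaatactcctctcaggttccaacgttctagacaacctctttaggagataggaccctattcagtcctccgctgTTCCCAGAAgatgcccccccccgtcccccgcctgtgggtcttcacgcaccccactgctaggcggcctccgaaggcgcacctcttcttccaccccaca
Psmb9: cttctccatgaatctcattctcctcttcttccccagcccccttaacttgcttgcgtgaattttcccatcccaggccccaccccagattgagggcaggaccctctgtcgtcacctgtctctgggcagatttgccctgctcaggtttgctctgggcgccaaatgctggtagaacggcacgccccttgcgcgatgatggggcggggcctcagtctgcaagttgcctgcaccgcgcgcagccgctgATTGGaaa
Psmb10: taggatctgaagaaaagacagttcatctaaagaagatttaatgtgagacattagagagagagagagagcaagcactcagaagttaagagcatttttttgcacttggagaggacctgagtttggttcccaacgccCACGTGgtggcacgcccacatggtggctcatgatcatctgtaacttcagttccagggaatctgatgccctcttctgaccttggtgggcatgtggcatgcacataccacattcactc
Psmb5: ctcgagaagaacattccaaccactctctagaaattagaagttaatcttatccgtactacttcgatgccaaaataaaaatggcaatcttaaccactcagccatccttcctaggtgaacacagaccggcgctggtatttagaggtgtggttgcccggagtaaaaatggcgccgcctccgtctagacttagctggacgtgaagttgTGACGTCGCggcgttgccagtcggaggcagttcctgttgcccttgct
Psmb6: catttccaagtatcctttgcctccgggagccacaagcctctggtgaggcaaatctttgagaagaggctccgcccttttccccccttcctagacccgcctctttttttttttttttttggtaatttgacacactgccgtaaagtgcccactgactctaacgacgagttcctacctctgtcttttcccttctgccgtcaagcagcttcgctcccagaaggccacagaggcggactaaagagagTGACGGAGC

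The motifs, each searched on both strands, were the interferon-stimulated response element (GAAA, any 2 bases, GAAA), the interferon gamma activation site (TTCNNNGAA), the E-box bound by MYC and MAX (CACGTG), the antioxidant response element core (TGACNNNGC), the CCAAT box (CCAAT) and a forkhead factor site (TGTTTAC). Psmb8 held the activation site 97 to 89 bases before its start, Psmb9 a reverse CCAAT box 8 to 4 bases before its start, Psmb10 an E-box 116 to 111 bases before its start, and Psmb5 and Psmb6 the antioxidant core 47 to 39 and 9 to 1 bases before theirs. These positions count from the start in the promoter table, so that the Psmb6 match lies inside its RefSeq gene. For Psma3 and Psma4 that start also lies inside the gene. Over the 41 members found in the promoter table, 3 held the response element (7.32%, against 3.46% of 27025 genes), 2 the activation site (4.88% against 8.13%), 4 the E-box (9.76% against 6.86%), 5 the antioxidant core (12.2% against 11.5%), 14 a CCAAT box (34.1% against 37.5%) and 0 the forkhead site (against 3.54%). The 5 promoters with the antioxidant core were those of Psmb5, Psmb6, Psmc6, Psmd9 and Psmd12, and the 4 with an E-box were those of Psma4, Psmb10, Psmd9 and Psme3. A match of letters in this window is a description and not a bound site. The Psmb9 stretch is shared with Tap1, a peptide transporter gene read in the opposite direction, whose start lies 225 bases away, so that the first 25 bases printed for Psmb9 lie inside Tap1. Psmb8 starts 969 bases beyond the end of Tap1.

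The first comparison, c-MYC against NL, asks how tumors driven by c-MYC differ from normal liver. Of the 49 genes, 1 was called higher and 2 lower by limma's treat test against a 1.5-fold change with Benjamini-Hochberg adjustment over 14017 genes, while 48.1% of all genes tested were called, 24.5% higher and 23.6% lower. The 2 that fell were the immunoproteasome subunits Psmb8 and Psmb9, and the 1 that rose was Psmg4, a chaperone of 20S assembly. In c-MYC/FOXO1AAA against c-MYC, which asks what activated FOXO1 adds, 2 were called higher (Psmb8 and Psmb9) and 2 lower (Psmb10 and the activator Psme1), against a background of 28.7% called, 15.9% higher and 12.7% lower. In c-MYC/FOXO1AAA against NL, 2 were called higher (Psme3 and Psmg4) and 7 lower (Psmb8, Psmb10, Psma4, Psmd9, Psme1, Psme2b and Psme4), against 57.8% called, 31.2% higher and 26.6% lower. The comparisons share their groups, so that a gene low in c-MYC alone enters the first 2 with opposite signs. Without the 1.5-fold threshold, 11 members were higher and 16 lower in c-MYC against NL (background 39.1% higher and 35.3% lower, 74.4% in all), 5 and 13 in c-MYC/FOXO1AAA against c-MYC (28.4% and 26.4%, 54.8% in all), and 9 and 24 in c-MYC/FOXO1AAA against NL (44.4% and 36.0%, 80.5% in all). With the threshold, leaving out c-MYC 2 gave 3 higher in c-MYC against NL. Leaving out c-MYC 1, c-MYC/FOXO1AAA 1 or c-MYC/FOXO1AAA 2 gave 1 lower in c-MYC/FOXO1AAA against c-MYC, leaving out c-MYC/FOXO1AAA 3 gave 4 lower there, and leaving out NL 4 gave 1 higher in c-MYC/FOXO1AAA against NL.

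**Figure D1:**
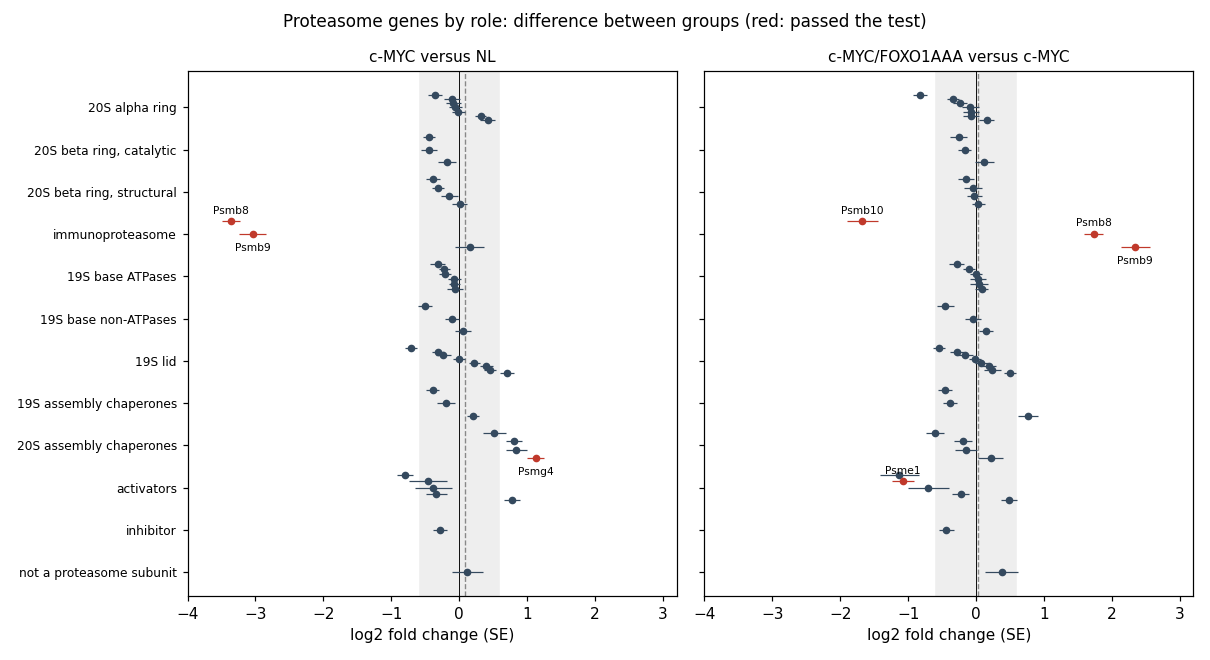
Each point is 1 proteasome gene, grouped by role on the vertical axis, at its log2 fold change on the horizontal axis with its standard error, for c-MYC against NL (left, n = 3 and 4) and c-MYC/FOXO1AAA against c-MYC (right, n = 3 and 3); the grey band spans a 1.5-fold change in either direction, the dashed line is the median of all 14017 genes, red points passed the test, and Psma8 is left out for its few reads. The 31 constitutive 26S subunits stay in or near the band while Psmb8 and Psmb9 lie far to the left in one panel and to the right in the other.

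The constitutive 26S proteasome, 14 core and 17 regulator subunits, had small fold changes. None of the 31 was called in c-MYC against NL or in c-MYC/FOXO1AAA against c-MYC, where without the fold threshold 6 were higher and 11 lower, and 1 higher and 6 lower; 1, Psma4, was called lower in c-MYC/FOXO1AAA against NL. With every library brought to the same median, Psmd8 was called lower in the first comparison and Psma4 in the second. Of all genes, 24.4% and 14.3% were then called lower. The median of the absolute log2 fold change over the 31 was 0.22, 0.14 and 0.28 in the 3 comparisons in the order given, beside 0.98, 0.59 and 1.23 over all genes, and 29, 30 and 27 of the 31 stayed within 1.5-fold. The signed median of the 31 lay 0.19, 0.07 and 0.41 below the median of all genes on the log2 scale, and these differences do not depend on how the libraries are scaled to each other. The fold changes themselves do: with every library brought to the same FPKM total, the all-gene median moved from 0.08 to 1.01 in c-MYC against NL, the median of the 31 from -0.10 to 0.83. Then 17 of the 31 were called higher, as were 50.4% of all genes. Summed FPKM of the 14 core subunits were 1768 to 2006 in NL, 1544 to 1804 in c-MYC and 1412 to 1659 in c-MYC/FOXO1AAA, and those of the 17 regulator subunits were 1601 to 1854, 1641 to 1731 and 1609 to 1758.

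Within the α ring, which gates the entry to the core, the 7 genes ran from Psma6 (log2 fold change -0.35, SE 0.10) to Psma5 (0.42, SE 0.11) in c-MYC against NL. Psma5 was 52 to 63.2 FPKM in NL, 72.8 to 80.4 in c-MYC and 66.1 to 85.6 in c-MYC/FOXO1AAA. Psma4 stood apart in the FOXO1AAA tumors: it was 209, 193, 189.5 and 199 FPKM in NL, 200.5, 183 and 185 in c-MYC, and 98.1, 103 and 122 in c-MYC/FOXO1AAA. The FOXO1AAA libraries thus lay below all 7 others for this gene. Its log2 fold change against c-MYC was -0.82 (SE 0.10, adjusted p = 0.0699). There it passed the threshold with equal medians (0.0191) and, among the libraries left out, only without c-MYC/FOXO1AAA 3 (0.0118). Against NL its log2 fold change was -0.88 (SE 0.10, adjusted p = 0.0102).

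The constitutive catalytic subunits Psmb5, Psmb6 and Psmb7 carry the chymotrypsin-like, caspase-like and trypsin-like activities. Psmb5 was 65.3, 60.1, 74.6 and 73 FPKM in NL, 66.4, 53.2 and 61.2 in c-MYC, and 60.1, 58.1 and 79.6 in c-MYC/FOXO1AAA, with overlapping groups. Psmb6 was 269, 237, 265 and 260.3 FPKM in NL, 197, 169 and 205 in c-MYC, and 136, 161 and 181 in c-MYC/FOXO1AAA. Psmb7 was 81.3, 75.9, 75.5 and 76.3 FPKM in NL, 57.4, 60.4 and 52 in c-MYC, and 46.3, 53.4 and 51.6 in c-MYC/FOXO1AAA. Psmb6 and Psmb7 did not overlap between NL and either tumor group, with log2 fold changes in c-MYC of -0.44 (SE 0.12) and -0.45 (SE 0.09), neither past the 1.5-fold test (adjusted p = 1 for both). Not overlapping was common: it held for 29, 21 and 36 of the 49 members in the 3 comparisons and for 73.9%, 63.4% and 80.1% of all genes tested. Of the 4 structural β subunits, Psmb2 (0.01, SE 0.11) and Psmb4 (-0.39, SE 0.10) were the ends in c-MYC against NL, and Psmb1 (0.03, SE 0.10) and Psmb2 (-0.15, SE 0.12) in c-MYC/FOXO1AAA against c-MYC.

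In the 19S base, whose 6 Psmc ATPases form the unfolding motor, log2 fold changes ran from -0.32 (Psmc2, SE 0.11) to -0.07 (Psmc5, SE 0.12) in c-MYC against NL and from -0.29 (Psmc3, SE 0.11) to 0.08 (Psmc4, SE 0.09) in c-MYC/FOXO1AAA against c-MYC. Psmd4, a ubiquitin receptor of the base, was 158 ± 7.22 FPKM in NL, 112 ± 4.65 in c-MYC and 124 ± 15.1 in c-MYC/FOXO1AAA. The scaffold Psmd1 was 29 ± 2.53, 30.3 ± 4.76 and 21.9 ± 0.452 FPKM in the same order. In c-MYC against NL the ends among the 31 were both in the lid, the part that holds the deubiquitinase Psmd14: Psmd7, its partner, was 69, 51.6, 60.9 and 60.6 FPKM in NL, 92.3, 97.9 and 104 in c-MYC, and 83.6, 84.7 and 94.5 in c-MYC/FOXO1AAA. Psmd8 went the other way, at 112, 99.4, 107 and 111 FPKM in NL, 63, 65 and 68.6 in c-MYC, and 89.3, 97 and 91.7 in c-MYC/FOXO1AAA. Both separated NL from c-MYC without overlap, and neither passed the test (Psmd7 log2 fold change 0.70, SE 0.11, adjusted p = 0.258, and Psmd8 -0.71, SE 0.08, adjusted p = 0.145). With equal medians Psmd8 passed it (adjusted p = 0.0474). Psmd12 was 46.4 ± 1.97, 54.1 ± 2.36 and 37.1 ± 1.45 FPKM, with a log2 fold change of -0.54 (SE 0.09, adjusted p = 1) in c-MYC/FOXO1AAA against c-MYC.

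Although the subunits enter the particle in equal numbers, their levels per length spanned 29.0 FPKM (Psmd1) to 258 FPKM (Psmb6) in NL, a ratio of 8.89, and the order depended on the length used. The length behind each deposited FPKM could be read from the values, and for all 49 members it equalled that of an annotated GENCODE M21 transcript of the gene, but only for 34 that of the principal transcript (the APPRIS choice of main isoform). For 7 the principal transcript was over 2 times as long. The extreme was Psme4, for which 452 bases were used in place of 6491, so that its deposited level is 14.4 times that per principal transcript. Psmc6 (383 bases against 2234), Psmd13 (599 against 1989), Psmd3 (747 against 2148), Psma3 (859 against 2846), Psmb9 (529 against 1352) and Psmd6 (658 against 1387) were the others. Per principal transcript, the 31 subunits spanned 28.2 to 258 FPKM in NL, with a median of 80.0 in place of 105.5. A fold change between groups for 1 gene does not depend on this length.

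**Figure D2:**
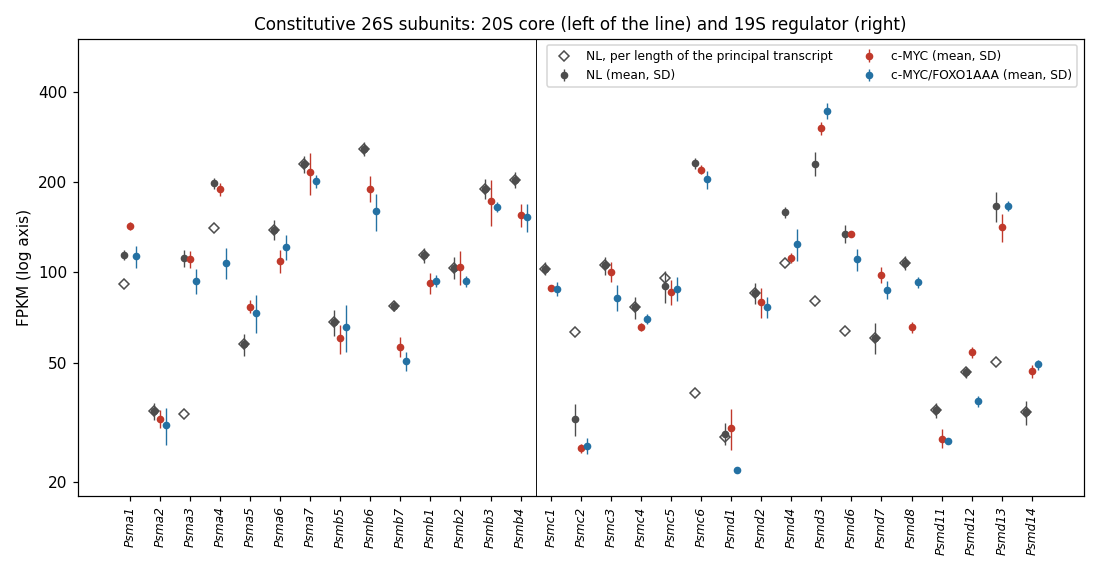
Mean FPKM (log axis) of the 31 constitutive 26S subunits in NL (grey, n = 4), c-MYC (red, n = 3) and c-MYC/FOXO1AAA (blue, n = 3), with SD bars; open diamonds give the NL mean per length of the principal transcript. The 3 groups lie close together for most genes, Psmd8, Psmd7 and Psma4 show the widest gaps, and the diamonds of Psmc6, Psma3, Psmd3, Psmd6 and Psmd13 fall far below their deposited levels.

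The immunoproteasome subunits did not move as one. Psmb8 (chr17:34198195-34201454), which replaces Psmb5, was 37.5, 29.9, 30.7 and 39 FPKM in NL, 3.12, 3.27 and 3.58 in c-MYC, and 10.2, 12.6 and 10.3 in c-MYC/FOXO1AAA. No 2 groups overlapped, and the order of the means was NL, c-MYC/FOXO1AAA, c-MYC. Psmb8 fell 10.3-fold in c-MYC (log2 fold change -3.36, SE 0.13, adjusted p = 1.97e-08) and rose 3.32-fold from c-MYC to c-MYC/FOXO1AAA (1.73, SE 0.14, adjusted p = 4.22e-05). It remained 3.09-fold below NL in c-MYC/FOXO1AAA (-1.63, SE 0.13, adjusted p = 1.82e-05). The counts behind these values were 458 to 673 reads per library in NL, 91 to 105 in c-MYC and 328 to 611 in c-MYC/FOXO1AAA.

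Psmb9 (chr17:34182030-34187330), which replaces Psmb6, was 79.3, 67.6, 58.1 and 83.4 FPKM in NL, 11.2, 6.44 and 8.97 in c-MYC, and 42.4, 52.4 and 38.3 in c-MYC/FOXO1AAA. The groups did not overlap and had the same order as for Psmb8. Psmb9 fell 8.24-fold in c-MYC (log2 fold change -3.04, SE 0.20, adjusted p = 8.78e-07) and rose 5.08-fold from c-MYC to c-MYC/FOXO1AAA (2.34, SE 0.21, adjusted p = 3.45e-05). Against NL, c-MYC/FOXO1AAA was lower by a log2 fold change of -0.70 (95% interval -1.13 to -0.27), which did not pass the 1.5-fold test (adjusted p = 0.413). Exons of Psmb9 and Tap1 overlap by 212 bases on opposite strands in GENCODE M21, those of Psmb8 and the antisense gene Gm20496 by 259 and those of Psmb7 and Nek6 by 253, and since strand use in counting was not stated, reads of such partners cannot be told apart. Psmb8 and Psmb9 lie in the MHC region of chromosome 17. The sources disagree on the strain but name no strain difference between the groups, and an effect of strain on reads there was not tested.

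Psmb10 (chr8:105935728-105938392), which replaces Psmb7, had another pattern. It was 70.7, 64.8, 59.9 and 68 FPKM in NL, 79.7, 60.7 and 80.5 in c-MYC, and 16.1, 21.5 and 34.4 in c-MYC/FOXO1AAA. NL and c-MYC overlapped (log2 fold change 0.15, 95% interval -0.33 to 0.63, adjusted p = 1), and all 3 FOXO1AAA libraries lay below the other 7. Psmb10 fell 3.2-fold from c-MYC to c-MYC/FOXO1AAA (-1.68, SE 0.23, adjusted p = 0.00198) and was 2.88-fold below NL (-1.52, SE 0.22, adjusted p = 0.00152). Its direction in c-MYC/FOXO1AAA against c-MYC was thus opposite to that of Psmb8 and Psmb9.

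**Figure D3:**
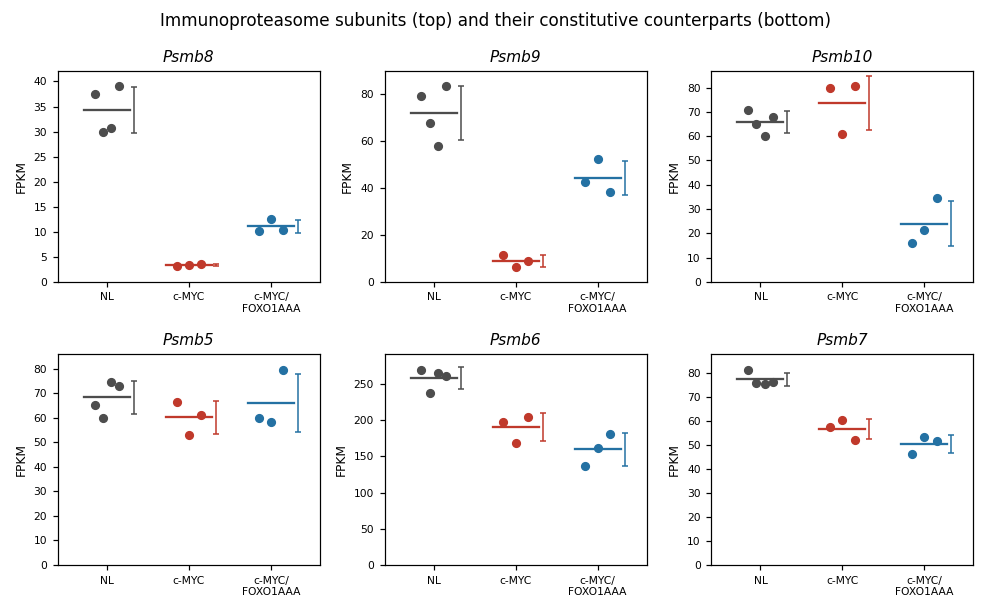
FPKM of Psmb8, Psmb9 and Psmb10 (top) and of the constitutive subunits they replace, Psmb5, Psmb6 and Psmb7 (bottom), with 1 point per library for NL (n = 4), c-MYC (n = 3) and c-MYC/FOXO1AAA (n = 3), lines at the means and SD bars beside them. Psmb8 and Psmb9 are lowest in c-MYC, Psmb10 is lowest in c-MYC/FOXO1AAA, and the counterparts differ by less.

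A ratio of an immunoproteasome subunit to the one it replaces is free of the scaling between libraries. Psmb8/Psmb5 was 0.411 to 0.574 in NL, 0.0469 to 0.0615 in c-MYC and 0.13 to 0.217 in c-MYC/FOXO1AAA, with no overlap between groups. Psmb9/Psmb6 was 0.219 to 0.321 in NL, 0.0382 to 0.057 in c-MYC and 0.211 to 0.325 in c-MYC/FOXO1AAA, so that the FOXO1AAA tumors covered the NL range. Psmb10/Psmb7 was 0.794 to 0.891 in NL, 1.01 to 1.55 in c-MYC and 0.348 to 0.666 in c-MYC/FOXO1AAA, again with no overlap. In the c-MYC tumors Psmb10 was therefore at or above the level of the subunit it replaces while Psmb8 and Psmb9 averaged 0.0556 and 0.0464 of theirs. These ratios are given as a description. With principal transcript lengths the ratios of Psmb8 and Psmb10 are unchanged, and Psmb9/Psmb6 averaged 0.11 in NL, 0.0181 in c-MYC and 0.111 in c-MYC/FOXO1AAA.

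The remaining immunoproteasome partner is the activator Psme1 with Psme2 (PA28αβ), an interferon-induced cap. Psme1 (chr14:55578494-55581527) was 185, 151, 164 and 173 FPKM in NL, 145, 119 and 137 in c-MYC, and 56, 53.6 and 83.3 in c-MYC/FOXO1AAA. It fell 2.11-fold from c-MYC to c-MYC/FOXO1AAA (log2 fold change -1.08, SE 0.16, adjusted p = 0.0243) and was 2.66-fold below NL there (-1.41, SE 0.15, adjusted p = 0.000331). The first of these calls was lost when c-MYC 1, c-MYC 3, c-MYC/FOXO1AAA 1 or c-MYC/FOXO1AAA 2 was left out (adjusted p 0.0636 to 0.0996) and with equal FPKM totals (0.0708). Psme2 was 162, 85.7, 127 and 104 FPKM in NL, 86.4, 63.8 and 108 in c-MYC, and 48.5, 37.5 and 76.3 in c-MYC/FOXO1AAA, and did not pass the 1.5-fold test. Its log2 fold change was -0.70 (SE 0.30, adjusted p = 0.771) in c-MYC/FOXO1AAA against c-MYC and -1.17 (SE 0.28, adjusted p = 0.0559, and 0.0029 without the fold threshold) against NL.

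Psme2b, a near-identical copy of Psme2 on chromosome 11, was 48.4, 69.6, 64.3 and 80.4 FPKM in NL, 58.3, 58.7 and 35.7 in c-MYC, and 15.7, 22.2 and 33.5 in c-MYC/FOXO1AAA. The library with the highest Psme2 had the lowest Psme2b in both NL (replicate 1) and c-MYC (replicate 3), but in c-MYC/FOXO1AAA replicate 3 was highest for both. How reads that fit both copies were assigned is not given in the sources used here, so the 2 genes are uncertain taken singly. Psme2b was lower in c-MYC/FOXO1AAA against NL (-1.51, SE 0.27, adjusted p = 0.00689) and not past the threshold against c-MYC (-1.13, SE 0.29, adjusted p = 0.138), which it passed without c-MYC 3 (0.0465) or c-MYC/FOXO1AAA 3 (0.025). Their summed reads were 109 to 136 in NL, 86.7 to 99.7 in c-MYC and 40.5 to 72.9 in c-MYC/FOXO1AAA per M of the scaled library size, and these 3 ranges did not overlap. The coefficient of variation of the sum was 9.29% in NL, 6.99% in c-MYC and 35.6% in c-MYC/FOXO1AAA, beside 27.4%, 25.8% and 37.1% for Psme2 and 20.4%, 26% and 38% for Psme2b. The mean log2 differences of the sum were -0.42 in c-MYC against NL and -0.91 in c-MYC/FOXO1AAA against c-MYC, beside -0.34 and -1.08 for Psme1. With these, c-MYC/FOXO1AAA had the lowest mean of Psmb10, Psme1 and the Psme2 pair, and c-MYC the lowest mean of Psmb8 and Psmb9.

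The other 2 activators moved apart from each other. Psme3 (PA28γ), a nuclear activator that is not part of the immunoproteasome, was 31.2, 25.4, 29.7 and 27.1 FPKM in NL, 43.5, 55.2 and 47.4 in c-MYC, and 71, 71 and 62.1 in c-MYC/FOXO1AAA. Each group lay above the one before without overlap, and Psme3 was 2.4-fold above NL in c-MYC/FOXO1AAA (log2 fold change 1.26, SE 0.11, adjusted p = 0.000145). The log2 steps between were 0.78 (SE 0.11, adjusted p = 0.11) and 0.49 (SE 0.12, adjusted p = 1). Psme3/Psme1, the ratio of the nuclear to the interferon-induced activator, was 0.157 to 0.181 in NL, 0.301 to 0.465 in c-MYC and 0.745 to 1.32 in c-MYC/FOXO1AAA. Psme4 (PA200), a nuclear activator made as 1 long chain, was 288, 279, 265 and 270.4 FPKM in NL, 135, 192 and 154 in c-MYC, and 129, 149 and 129 in c-MYC/FOXO1AAA. Psme4 was lower in c-MYC/FOXO1AAA against NL (-1.03, SE 0.12, adjusted p = 0.00402) and missed the threshold in c-MYC against NL (-0.80, SE 0.12, adjusted p = 0.103). It passed the latter with equal medians (adjusted p = 0.0422) and when c-MYC 2 was left out (adjusted p = 0.0092). Psmf1 (PI31), an inhibitor of the core, was 12.6 to 13.3 FPKM in NL, 9.49 to 11.6 in c-MYC and 7.13 to 8.27 in c-MYC/FOXO1AAA, with log2 fold changes of -0.28 (SE 0.10) in c-MYC against NL and -0.44 (SE 0.11) in c-MYC/FOXO1AAA against c-MYC that did not pass the 1.5-fold test (adjusted p = 1 for both, and 0.0296 and 0.00642 without the threshold).

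**Figure D4:**
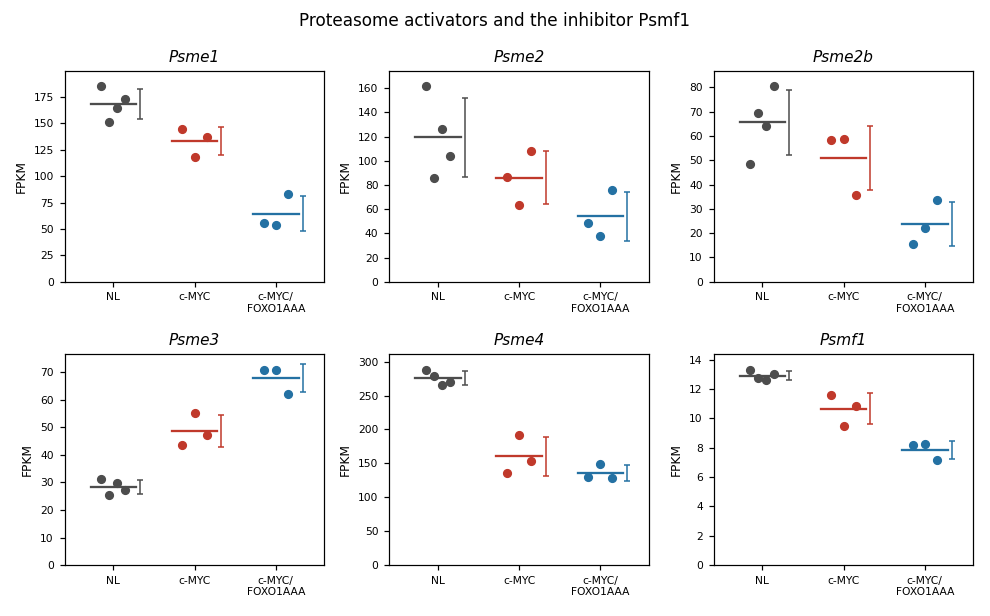
FPKM of the activator genes Psme1, Psme2, Psme2b, Psme3 and Psme4 and of the inhibitor Psmf1, with 1 point per library for NL (n = 4), c-MYC (n = 3) and c-MYC/FOXO1AAA (n = 3), lines at the means and SD bars beside them. Psme3 is highest and Psme1 lowest in c-MYC/FOXO1AAA, and Psme2 and Psme2b spread widely within groups.

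Of the members, 7 are chaperones that build the particle. Among the 20S chaperones, which pair up to guide ring assembly, Psmg4 was 30.1, 31.9, 27.3 and 25.9 FPKM in NL, 72.8, 51.2 and 66.3 in c-MYC, and 52.6, 55.3 and 56.3 in c-MYC/FOXO1AAA. Both tumor groups lay above NL, by 2.18-fold in c-MYC (log2 fold change 1.13, SE 0.13, adjusted p = 0.00203) and 1.91-fold in c-MYC/FOXO1AAA (0.93, SE 0.13, adjusted p = 0.0188), and the latter call was lost without NL 4 (adjusted p = 0.0506), with equal medians (0.127) and with the replicate number as a block (0.0719). Its partner Psmg3 was 16 ± 0.738 FPKM in NL, 23.3 ± 5.63 in c-MYC and 26.8 ± 5.07 in c-MYC/FOXO1AAA. Psmg1 was 37.7 ± 4.71, 65.9 ± 6.25 and 43.4 ± 4.28 FPKM (c-MYC against NL 0.81, SE 0.12, adjusted p = 0.0941, and 0.0489 when c-MYC 2 was left out). All 4 Psmg genes had log2 fold changes above 0 in c-MYC against NL. Of the 4, 1 (25%) was called higher, near the 24.5% of all genes called higher. Of the 19S chaperones, Psmd9 was 24.3 ± 2.22, 18.5 ± 1.07 and 13.4 ± 0.663 FPKM, and c-MYC/FOXO1AAA was lower against NL (-0.85, SE 0.10, adjusted p = 0.0191, and 0.0672 without c-MYC/FOXO1AAA 1). Up to 1849 bases of Psmd9 exons, whose transcript was taken as 2597 bases long, overlap the lincRNA Gm26745 on the opposite strand, so reads of the 2 cannot be told apart. Psmd5 (10.5 ± 0.566, 12.1 ± 0.699 and 9.25 ± 0.306 FPKM) and Psmd10, the oncoprotein gankyrin (9.24 ± 1.29, 8.02 ± 0.53 and 13.7 ± 2.07 FPKM), did not pass the 1.5-fold test on the deposited scale. In c-MYC/FOXO1AAA against c-MYC, Psmd10 was 0.77 (SE 0.15, adjusted p = 0.324, 0.00111 without the threshold and 0.0466 with equal FPKM totals) and Psmd5 -0.39 (SE 0.10, adjusted p = 1, and 0.0072 without the threshold).

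The directions against NL hold on the deposited scale. With equal FPKM totals, 25 members were called higher and 2 lower in c-MYC against NL, 3 and 1 in c-MYC/FOXO1AAA against c-MYC, and 31 and 0 in c-MYC/FOXO1AAA against NL. Of all genes, 50.4% were then called higher and 13.5% lower in the first comparison, 18.5% and 10.6% in the second and 58.0% and 15% in the last. Psmd5 was among the members then called higher in c-MYC against NL (1.13, adjusted p = 0.000307). Under that scaling the falls of Psmb8 and Psmb9 in c-MYC, their rises from c-MYC to c-MYC/FOXO1AAA and the fall of Psmb10 between the tumor groups were still called, while the lower calls of Psmb8, Psmb10, Psme1 and Psme2b against NL in c-MYC/FOXO1AAA were lost and the log2 fold changes of Psma4, Psmd9 and Psme4 there turned positive. Among the genes of the other lists described next, the lower calls of Pomp, Fbxo7, Ddi2, Tapbp and Erap1 in c-MYC against NL were also lost. So were those of H2-K1, H2-D1, Tap2, Irf1, Pomp, Fbxo7 and Ngly1 in c-MYC/FOXO1AAA against NL. The log2 fold changes of Zfand5 and Ngly1 in c-MYC against NL turned positive.

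Psma8, an α subunit of the testis, was close to the floor, with 15, 4, 9 and 6 reads in NL, 45, 0 and 49 in c-MYC, and 3, 1 and 48 in c-MYC/FOXO1AAA, and allowed no comparison. Psmc3ip, the entry that is no subunit, was 7.11 ± 2.15, 7.5 ± 1.23 and 9.66 ± 0.875 FPKM.

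Genes that work with the proteasome were read from lists of further 19S and bound factors, assembly factors, the NRF1 pathway, shuttle factors, ubiquitin genes and class I antigen presentation. Adrm1 and Sem1 are 19S subunits with other symbols. Adrm1 was 190.5 ± 11.5 FPKM in NL, 157 ± 5.28 in c-MYC and 159.7 ± 17 in c-MYC/FOXO1AAA, and Sem1 was 55 ± 3.47, 34.7 ± 3.2 and 53.5 ± 11.3 FPKM, with no call between groups. Of the 8 genes in that list, 25%, 12.5% and 12.5% were called in the 3 comparisons, beside 48.1%, 28.7% and 57.8% of all genes. Uchl5, a 19S deubiquitinase, was higher in c-MYC against NL (1.21, SE 0.14, adjusted p = 0.00124). Usp14, the other proteasome deubiquitinase, was higher in c-MYC/FOXO1AAA against NL (0.98, SE 0.11, adjusted p = 0.005). Zfand5, a proteasome-binding factor, was lower in c-MYC against NL (-0.92, SE 0.13, adjusted p = 0.0243) and higher in c-MYC/FOXO1AAA against c-MYC (1.20, SE 0.13, adjusted p = 0.00252). The former call was lost without NL 2, NL 4, c-MYC 2 or c-MYC 3 (0.0555 to 0.097) and with the replicate block (0.058). Pomp, the chaperone that the maturing core consumes, was 118, 108, 116 and 111 FPKM in NL, 49.7, 42.3 and 46.6 in c-MYC, and 48.7, 47.9 and 58.2 in c-MYC/FOXO1AAA. All tumors lay below all normal livers, and Pomp fell 2.45-fold in c-MYC (-1.30, SE 0.10, adjusted p = 5.38e-05), in which no constitutive core subunit was called. Fbxo7, which binds Psmf1, also fell (-1.30, SE 0.19, adjusted p = 0.00473). Pomp (-1.14) and Fbxo7 (-1.39) were called lower in c-MYC/FOXO1AAA against NL as well.

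NRF1 (Nfe2l1) is the transcription factor that raises proteasome genes when proteasome capacity is short. Nfe2l1 was 40.6 to 43.1 FPKM in NL, 26.8 to 35.3 in c-MYC and 35.5 to 39.9 in c-MYC/FOXO1AAA, and its relative Nfe2l2 was 25.9 ± 3.9, 18.8 ± 1.22 and 24.8 ± 1.72 FPKM, with no call for either. Ddi2 (-1.03, SE 0.12, adjusted p = 0.00527) and Ngly1 (-0.91, SE 0.14, adjusted p = 0.0385), the protease and the deglycosylase that process NRF1, were lower in c-MYC against NL. The call of Ngly1 was lost without NL 1, 2 or 3 or any c-MYC library (0.0616 to 0.0993) and with log2(FPKM + 1) (0.0662). In c-MYC/FOXO1AAA against NL, Ngly1 was also called lower (-1.59), and that call was lost only with equal FPKM totals. Nfe2l3, a relative of NRF1, had 1 to 9 reads in each NL library, 1 to 6 in c-MYC and 245 to 394 in c-MYC/FOXO1AAA (3.27 to 6.33 FPKM). It passed the filter on low values only through the group where it is high, so its fold change is not given. Of the 7 shuttle factors, which carry ubiquitinated substrates, Ubqln4 was higher in c-MYC (1.34, SE 0.13, adjusted p = 0.000241). It was called higher in c-MYC/FOXO1AAA against NL too (1.26). Of the 4 ubiquitin genes described, Rps27a was higher in c-MYC/FOXO1AAA against NL (1.82, SE 0.29, adjusted p = 0.0019). In the 3 comparisons 14.3%, 0% and 14.3% of the shuttle factors and 0%, 0% and 25% of the ubiquitin genes were called. The shares of all genes were 48.1%, 28.7% and 57.8%.

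Class I antigen presentation, the pathway that receives immunoproteasome peptides, had 0 of 12 genes called higher and 8 lower in c-MYC against NL, 5 higher and 1 lower in c-MYC/FOXO1AAA against c-MYC, and 0 higher and 8 lower in c-MYC/FOXO1AAA against NL. The shares called, 66.7%, 50% and 66.7% of the 12, stand beside 48.1%, 28.7% and 57.8% of all genes called in either direction. All calls in the first and last comparisons were lower, beside 23.6% and 26.6% of all genes called lower there. Between the tumor groups, 15.9% of all genes were called higher and 12.7% lower. Without the fold threshold, 6 were higher and 6 lower between the tumor groups. Tap1, which with Tap2 carries peptides into the endoplasmic reticulum, was 12.7, 9.34, 7.15 and 12.6 FPKM in NL, 1.89, 1.41 and 2.29 in c-MYC, and 15.4, 17 and 12 in c-MYC/FOXO1AAA. Nlrc5, the transactivator of class I genes, was 2.69, 2.73, 2.26 and 2.46 FPKM in NL, 0.203, 0.212 and 0.138 in c-MYC, and 4.89, 5.35 and 2.8 in c-MYC/FOXO1AAA. Both had the c-MYC libraries below all others, as Psmb8 and Psmb9 did, and rose from c-MYC to c-MYC/FOXO1AAA (Tap1 3.00, SE 0.25, adjusted p = 1.42e-05, and Nlrc5 4.53, SE 0.30, adjusted p = 1.39e-06). The 5 genes called higher there were Tap1, Tap2, the class I heavy chains H2-K1 and H2-D1, and Nlrc5. Tap1, Tap2, H2-K1 and H2-D1 also lie in the MHC region, where an effect of strain on reads was likewise not tested. Tap1 exons overlap those of Psmb9, as given above. The lower call of Tap2 in c-MYC/FOXO1AAA against NL (-1.10, SE 0.21, adjusted p = 0.0286) was lost without NL 1, NL 2, c-MYC/FOXO1AAA 2 or c-MYC/FOXO1AAA 3 (0.0504 to 0.071). B2m, the class I light chain, was 2730 ± 220.2 FPKM in NL, 299.7 ± 30.9 in c-MYC and 483 ± 39.2 in c-MYC/FOXO1AAA (-3.19, SE 0.11, adjusted p = 8.48e-09 in c-MYC against NL, and 0.69, SE 0.12, adjusted p = 0.478 in c-MYC/FOXO1AAA against c-MYC). The interferon-pathway factor Irf1 (14.4 ± 2.07, 9.48 ± 0.903 and 4.48 ± 1.58 FPKM) was lowest in c-MYC/FOXO1AAA, as were Psmb10 and Psme1. So were 5 others of the 12, among them Erap1 (20.2, 7.56 and 3.58 FPKM) and Tapbp (38.2, 16.5 and 8.65 FPKM), the latter a bridge between Tap1 and class I molecules. Irf1 was lower there than in NL (-1.74, SE 0.22, adjusted p = 0.000435), and between the tumor groups it was -1.14 (SE 0.24, adjusted p = 0.0665, 0.0404 with equal medians and 0.00805 without c-MYC/FOXO1AAA 3). In that contrast Erap1, which trims class I peptides, was the 1 gene called lower (-1.06, SE 0.16, adjusted p = 0.0229), a call that was lost without c-MYC 2 (adjusted p = 0.078) or c-MYC/FOXO1AAA 2 (0.0841). It was also lost with log2(FPKM + 1) (0.0928), equal FPKM totals (0.143), only the 2 groups compared (0.0689) and the replicate block (0.0554).

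**Figure D5:**
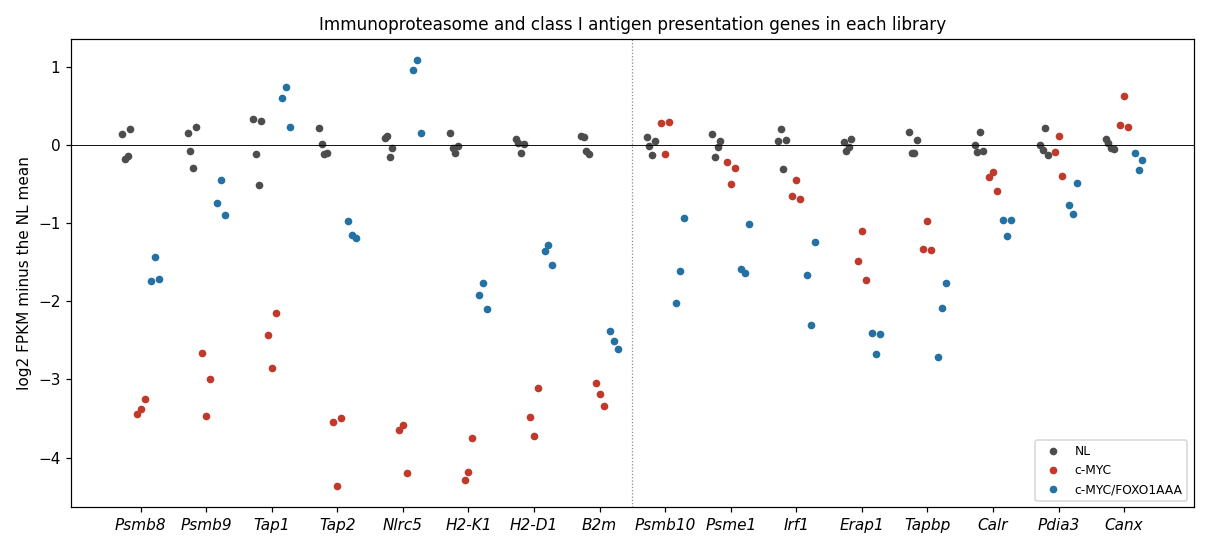
Log2 FPKM minus the NL mean of the same gene for Psmb8, Psmb9, Psmb10, Psme1 and the 12 class I antigen presentation genes, with 1 point per library (NL grey, n = 4; c-MYC red, n = 3; c-MYC/FOXO1AAA blue, n = 3). The 8 genes left of the dotted line have their lowest mean in c-MYC, and the 8 to the right, Psmb10 and Psme1 among them, in c-MYC/FOXO1AAA.

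Immune cells carry immunoproteasome in any tissue, so their markers are set beside these values. The 7 of 12 T, B and NK cell markers found in the table summed to 4.84 to 7.67 FPKM in NL, 4.82 to 6.42 in c-MYC and 10.7 to 14 in c-MYC/FOXO1AAA, and 1 of them, Cd79a, passed 3 FPKM in any library (0.374 ± 0.355, 0.217 ± 0.0206 and 9.52 ± 2.48 FPKM), while the other 5 of the list were not found in the table. Cd79a made up most of the c-MYC/FOXO1AAA sum. Of the markers found, 5 passed the filter on low values. Against NL, 2 of these had log2 fold changes above 0 and 3 below in c-MYC/FOXO1AAA. Cd79a, 1 of the 2 above 0, passed the filter only through c-MYC/FOXO1AAA, where it is high. Its place in this count follows from that. Ptprc, carried by all leukocytes, was 1.27 ± 0.211, 1.86 ± 0.117 and 1.04 ± 0.381 FPKM. The 9 macrophage and Kupffer cell markers summed to 213 to 345 FPKM in NL, 216 to 243 in c-MYC and 144 to 209 in c-MYC/FOXO1AAA. Among them Clec4f, of Kupffer cells, was 208 ± 53.9, 4.66 ± 3.01 and 18.1 ± 6.54 FPKM, with c-MYC lowest as for Psmb8 and Psmb9, while Cd68 was 7.02 ± 1.89, 34.5 ± 2.97 and 23.3 ± 6.72 FPKM. Clec4f thus made up most of the NL sum and little of the tumor sums. Of the 8 macrophage markers tested, 3 had log2 fold changes above 0 and 5 below in c-MYC against NL, so the sums do not stand for every marker. The 6 endothelial markers summed to 23.8 to 26.6, 11.7 to 18.5 and 28.2 to 42.8, the 6 stellate cell and fibroblast markers to 19.1 to 22.1, 8.89 to 26.2 and 142 to 180.4, and the 4 biliary markers found to 2.36 to 4.63, 15.4 to 30.8 and 4.72 to 11.9. The endothelial sum does not stand for its list in c-MYC/FOXO1AAA against NL. There 5 of the 6 markers had log2 fold changes below 0, down to -3.89 (Stab2), and 1, Cdh5 (2.45), lay above 0. The stellate and biliary sums do not stand for every marker either. In c-MYC against NL, 3 stellate markers lay above 0 and 3 below. In c-MYC/FOXO1AAA against NL, 5 lay above and 1, Lrat (-3.93), below. Of 3 biliary markers tested, 2 lay above 0 and 1 below in c-MYC against NL, and 1 above and 2 below between the tumor groups. The part of these cells in the levels of Psmb8, Psmb9, Psmb10 and Psme1 was not tested.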

How the data were processed

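The deposited table held log2 FPKM of 16697 genes, which the authors made with edgeR, adding an average prior count of 2 in proportion to library size; 372 further rows had no symbol or value and were left out. The submitters' notes name GRCm38 and FastQC 0.11.7, and aligner, counter, annotation and strand use are not given in the sources used here. Libraries were grouped by their labels. limma 3.58.1 (R 4.3.3, trend and robust) was fitted to the 14017 genes with at least 1 FPKM in at least 3 libraries, with the treat test against 1.5-fold standing in for the count test of the study, and a gene was called at an adjusted p under 0.05. Fold changes are on the deposited log2 scale, whose prior count shrinks those of low genes. Whole reads were recovered from the values (99.6% of genes with 1 solution, tolerance 0.001 reads), and both steps were tested on simulated data. Precision comes from 3 or 4 samples a group.

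Genes were given library by library when they were catalytic, activator or inhibitor subunits, and otherwise, by values or as means, when they had the highest or lowest fold change of their sublist in the first 2 comparisons; Psme2b, Psmd5 and genes of the other lists past the test were also named. Members and lists were chosen with earlier results of these data known, and some genes of the lists are not reported here. Alternatives were 2 other pseudocounts, no filter, 2 other scalings, no fold threshold, only the groups compared, a replicate block and leaving out each library; principal transcript lengths and all alternatives for the genes outside the family were added after seeing the data. Promoters are from RefSeq (GRCm38.p6), in which 41 of 49 members were found.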

Additional observations from a re-analysis of the deposited data

Results flagged for a closer look

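Among the 4 NL libraries, each of the 49 members was checked for a library far from the other 3 relative to the range of all 4. Psmb7 was 81.35 FPKM in NL 1 and 75.5 to 76.28 in the other NL libraries. Psmg3 was 14.86 FPKM in NL 3 and 16.23 to 16.41 in the others. Chance flags about 1 in 20 such checks, and 2 of 49 were flagged here. Groups of 3 were not checked.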

How the results depend on the processing

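Of 130 gene results in the text, 54 of them past the test, each was recomputed under every alternative, giving 2340 values, of which 2161 kept their direction and their side of the threshold. The scaling between libraries mattered most. With equal FPKM totals, 25 members were higher in c-MYC against NL, 1 was lower in c-MYC/FOXO1AAA against c-MYC, and 31 were higher with 0 lower for c-MYC/FOXO1AAA against NL, where 50.4%, 10.6%, 58.0% and 15% of all genes were called in those directions; by limma, with equal medians 4 were lower in the first comparison and 1 higher in the last. Without the fold threshold the comparisons, in the order of the report, had 11, 5 and 9 members higher and 16, 13 and 24 lower. Leaving out each library gave 1 to 3 higher and 2 to 3 lower in c-MYC against NL, 2 higher and 1 to 4 lower between the tumor groups, and 1 to 2 higher and 6 to 8 lower between c-MYC/FOXO1AAA and NL.

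Of the results past the test, 6 turned sign under any alternative, all with equal FPKM totals, and 22 fell below the threshold under at least 1. With equal FPKM totals the log2 fold changes that turned sign were in c-MYC against NL Adrm1 0.65, Irf1 0.33, Nfe2l1 0.41, Nfe2l2 0.47, Ngly1 0.013, Psma4 0.87, Psma6 0.58, Psmb1 0.61, Psmb4 0.54, Psmb5 0.75, Psmb6 0.48, Psmb7 0.48, Psmc2 0.61, Psmc3 0.86, Psmc4 0.71, Psmc5 0.86, Psmd10 0.73, Psmd4 0.42, Psmd8 0.22, Psmd9 0.53, Psme1 0.59, Psme2 0.46, Psme2b 0.55, Psme4 0.13, Psmf1 0.64, Sem1 0.26, Zfand5 0.0031, and in c-MYC/FOXO1AAA against c-MYC Psma5 0.099, Psmb2 0.018, Psmb4 0.15, Psmb7 0.0055, Psmd7 0.0053, and in c-MYC/FOXO1AAA against NL Calr 0.068, Psma4 0.21, Psmb9 0.40, Psmd9 0.24, Psme4 0.073. With equal medians they were in c-MYC against NL Psmb2 -0.044, and in c-MYC/FOXO1AAA against c-MYC Adrm1 -0.068, Psmb1 -0.055, Psmc2 -0.057, Psmc4 -0.00023, Psmc5 -0.045. When a library was left out, values near 0 spanned it, in c-MYC against NL Psma8 -0.71 to 1.57, Psmb2 -0.059 to 0.12, Psmc3ip -0.089 to 0.28, Psmc5 -0.12 to 0.015, Psmd1 -0.068 to 0.14, and in c-MYC/FOXO1AAA against c-MYC Adrm1 -0.063 to 0.089, Psmb1 -0.024 to 0.092, Psmb4 -0.11 to 0.044, Psmb5 -0.022 to 0.20, Psmc2 -0.0041 to 0.081, Psmc5 -0.040 to 0.12, Psmg3 -0.0040 to 0.35. Per principal transcript length, Psmb9/Psmb6 was 0.1095 in NL, 0.01814 in c-MYC and 0.1106 in c-MYC/FOXO1AAA.

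Deviations of same-numbered libraries had correlations of -0.04 to 0.03 over genes, within the span of differently numbered pairs (-0.072 to 0.070). This cannot show if they share more than a number. With the replicate number as a block, 1 member was higher in c-MYC/FOXO1AAA against NL in place of 2, 8 were lower in place of 7, the calls of Psmg4 there (adjusted p = 0.0719), of Erap1 between the tumor groups (0.0554) and of Zfand5 in c-MYC against NL (0.058) were lost, and Psmb2 in c-MYC against NL was -0.033.

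Few reads limit Psma8. Levels were measured in whole tissue, marker levels of several cell types differ between the groups, and 3 or 4 samples a group limit the precision for the constitutive subunits.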
